A study of Mus musculus with 17 samples.

Results

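TIM4+CD206hi KCs were compared with TIM4+CD206+ KCs sorted from tumour-bearing mouse livers. All samples that the labels place in either group were used, which gave 3 CD206hi and 3 CD206+ samples, 6 of the 17 RNA-seq samples of the series. KCs, the resident macrophages of the liver, were sorted 2 weeks after pancreatic tumour cells were injected into the portal vein. Of the other samples, 6 came from the same KC subsets of tumour-free livers and are used only to ask whether the subset difference was the same without tumour. The tumour-free mice were untreated. The labels name no gene deletion or transgene in these 4 groups. They give neither strain, age nor sex, and do not say whether a sample was 1 mouse or a pool, so that p-values measure only the spread between samples, which may be technical. Both subsets were sorted as F4/80+TIM4+ cells, with CD3, NKp46 and Ly6G among the exclusion markers, and differed in the level of CD206. The gate as given in the methods also holds CD45 and lists no endothelial or epithelial marker.

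KCs lie in the lumen of the liver sinusoids, where they take up particles, dying cells, haem and lipoproteins from portal blood, and they are marked by Clec4f, Cd5l, Vsig4 and Timd4. CD206 is the mannose receptor encoded by Mrc1, an endocytic C-type lectin that liver sinusoidal endothelial cells carry at high levels as well as macrophages. The sinusoidal endothelium is the nearest neighbour of the KC and supplies it with Notch ligands, BMPs and CSF1.

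The deposited values are log2 values that the authors normalized separately for each KC subset, so that levels of a gene could not be compared directly. A gene's level is therefore given as its percentile rank within a sample, from 0 for the lowest to 100 for the highest of 13110 genes, and a difference as percentile points, CD206hi minus CD206+. These ranks resolve little among the most abundant genes, and a log2 difference after quantile normalization is given beside them. Depth cannot be read from these values. The 10 most abundant genes held 17.7 to 18.1% of the summed linear values in the CD206+ and 10.3 to 11% in the CD206hi samples. Subset and table were the same split, so that differences made by the sort, the libraries or the normalization cannot be told apart from differences between the subsets.

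Most genes differed between the subsets. At an adjusted p under 0.05 by limma, 9477 of 13110 genes (72.3%) were called, 4337 of them higher (33.1%) and 5140 lower (39.2%) in CD206hi KCs. An unadjusted p under 0.05 was found for 9721 genes, and in 76.4% of genes the ranges of both groups were separate. The median size of a difference was 8.84 points, against a median SD between samples of 2.38 points in the CD206+ and 1.37 in the CD206hi group. The authors' transformation is not given in the sources used here. A regularized log would draw samples of the same table together and narrow this spread, so sizes are given more room than calls. An adjusted p under 0.05 together with a log2 difference of at least 1, a size set after the values were seen, was met by 20.7% of genes towards higher and 22.8% towards lower ranks in CD206hi KCs.

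The difference moved with transcript length and GC content. Genes in the shortest quintile, with a median transcript of 1191 bases, had a median difference of −9.35 points and those in the longest quintile, with 6436 bases, one of 8.12. Genes in the quintile with the lowest GC content had a median of 8.89 points and those in the highest one of −6.29. After these trends were removed, the medians of the quintiles lay between −1.98 and −0.31 points, and 26.6% of genes were called higher and 34.3% lower. Of the calls, 5890 kept their direction and remained past the threshold while 508 were called in the opposite direction. Counts of gene groups are therefore given as ranked and with the trends removed. They are to be read against the shares over all genes. These were 33.1% higher and 39.2% lower as ranked, and 26.6% and 34.3% with the trends removed. What produced the trends was not tested.

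**Figure D1:**
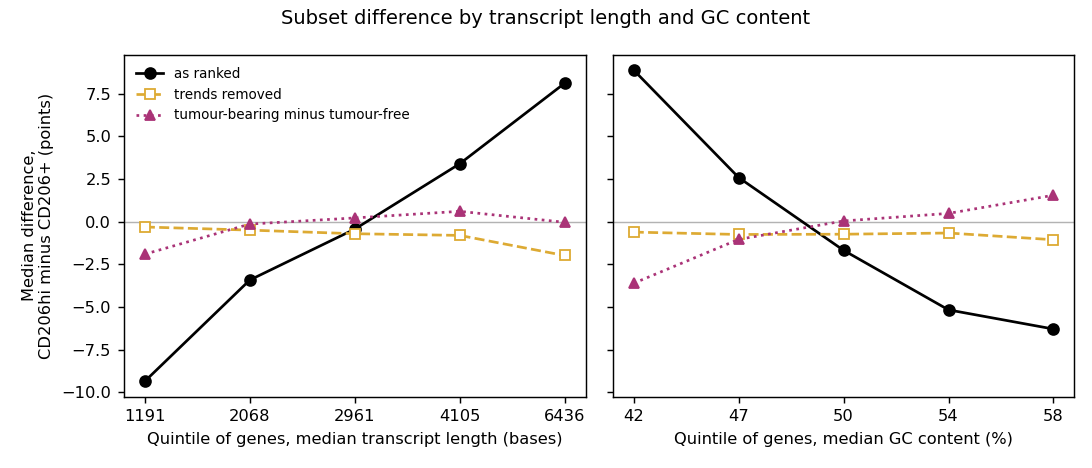
Median difference in percentile points between CD206hi and CD206+ KCs (y axis) for quintiles of genes by transcript length or GC content (x axes, median of each quintile). Circles are ranks as measured in tumour-bearing livers, squares the same with both trends removed, and triangles the tumour-bearing minus the tumour-free difference. The circles climb from −9.35 to 8.12 points with length and drop from 8.89 to −6.29 with GC content.

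Mrc1, the gene of the sorted receptor (chromosome 2, 14229414 to 14332023, GRCm38), was higher in CD206hi KCs. It ranked at 94.4, 92.6 and 92.2 in the 3 CD206+ and at 99.4, 99.2 and 99.3 in the 3 CD206hi samples, a difference of 6.23 points (SE 0.53, adjusted p = 3.93e-05) and 2.72 on the log2 scale. All CD206hi samples lay above all CD206+ samples, as the gate would order them. Of the other genes of the gate, Ptprc, which encodes CD45, was higher by 9.29 points (SE 0.46, adjusted p = 1.04e-05) and Timd4, which encodes TIM4, by 0.76 points (SE 0.23, adjusted p = 0.0183). The call of Timd4 was lost with the trends removed, and without CD206hi replicate 1 (0.74 points) or replicate 3 (0.66 points). Adgre1, which encodes F4/80, ranked at 99.1 to 99.5 and differed by 0.23 points (SE 0.16, adjusted p = 0.239). Of the genes of the exclusion markers, Cd3d, a chain of the T cell receptor complex, was lower in CD206hi KCs by 30 points and Ncr1, which encodes NKp46, by 13.3. Both remained lower with the trends removed.

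Endothelial genes were higher in CD206hi KCs. Of 19 genes of the sinusoidal endothelium tested, 18 were higher and 1 lower, with a median difference of 39.4 points and 4.71 on the log2 scale. Of 28 pan-endothelial genes, 26 were higher and 0 lower, with a median of 51.2 points and 4.41 on the log2 scale, against −0.77 points and −0.10 over all genes. With the trends removed the counts were the same, 18 and 26, and the medians 39.5 and 50.6 points. Among genes not tested, Cyyr1 and Sox17 fell under the filter on low values and Fcn3 was not matched in the tables. In bulk samples, a larger share of endothelial cells and more endothelial RNA per cell cannot be told apart.

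Receptors of endothelial growth and guidance signals were among the leading genes. Kdr, the main VEGF receptor (chromosome 5, 75932827 to 75979072), ranked at 23.0, 19.2 and 57.4 in CD206+ and at 98.0, 98.2 and 98.7 in CD206hi samples, a difference of 65.1 points (SE 9.2, adjusted p = 0.000477). Tek, the receptor of angiopoietins, ranked at 8.65, 8.99 and 32.0 against 90.2, 90.5 and 91.8, which is 74.3 points (SE 6.1, adjusted p = 3.42e-05). CD206+ replicate 3 stood above the other CD206+ samples for both genes, and still far below every CD206hi sample. Robo4, a guidance receptor of vessels, was higher by 64.2 points, Dll4, a Notch ligand, by 60, and Eng, a co-receptor for BMPs, by 42.9.

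Sinusoidal genes followed the same order. Bmp2, the BMP ligand by which the sinusoidal endothelium sets hepatocyte iron sensing, ranked at 7.94, 13.3 and 32.9 in CD206+ and at 91.5, 91.8 and 95.3 in CD206hi samples, a difference of 74.8 points (SE 6.0, adjusted p = 3.25e-05). F8, coagulation factor VIII, was higher by 73.3 points, Clec4g, a sinusoidal lectin, by 26.3, and Lyve1, a hyaluronan receptor, by 39.4. The hyaluronan scavengers Stab1 and Stab2 were already abundant in CD206+ samples, with ranks of 91.1 to 93.9, and were higher by 5.44 and 5.27 points in CD206hi KCs. Fcgr2b, the inhibitory Fc receptor, was higher by 7.38 points, a call that was lost when all 12 samples shared the spread, and the call of Stab1 was lost with median centring. The 1 lower member was Ccl24, an eosinophil-attracting chemokine, by 1.60 points. Cdh5, the adherens junction cadherin, which is also listed among the KC genes, had ranks of 85.7 to 88.0 in CD206+ and of 88.8 to 89.8 in CD206hi samples. Its difference of 2.13 points (SE 0.70, adjusted p = 0.0275) was lost with the trends removed, and without CD206hi replicate 2 (2.12 points) or replicate 3 (1.90 points).

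The genes with the 10 largest differences towards CD206hi KCs were Sema6a (76.4 points), Bmp2, Tek, F8, Adgrf5 (72.5 points), Nid1 (71.1 points), Adgrl4 (69.9 points), Msrb3 (69.6 points), Timp3 (68.9 points) and Igfbp7 (67.8 points). Adgrf5 and Adgrl4 are adhesion GPCRs of endothelium, and Nid1 and Timp3 act in the basement membrane and matrix. All 10 remained called with the trends removed. Their ranks were 6.98 to 41.2 in CD206+ samples and 83.0 to 95.8 in CD206hi samples. The summed linear level of the pan-endothelial list, on the separately normalized scales, was 13.29 to 13.97 on the log2 scale in CD206+ and 17.23 to 17.46 in CD206hi samples, and that of the sinusoidal list 15.79 to 15.97 and 17.54 to 17.82. Each member tested had reached a deposited value of log2(10) in at least 3 samples of each table, and the part of endothelial RNA in other differences was not tested.

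**Figure D2:**
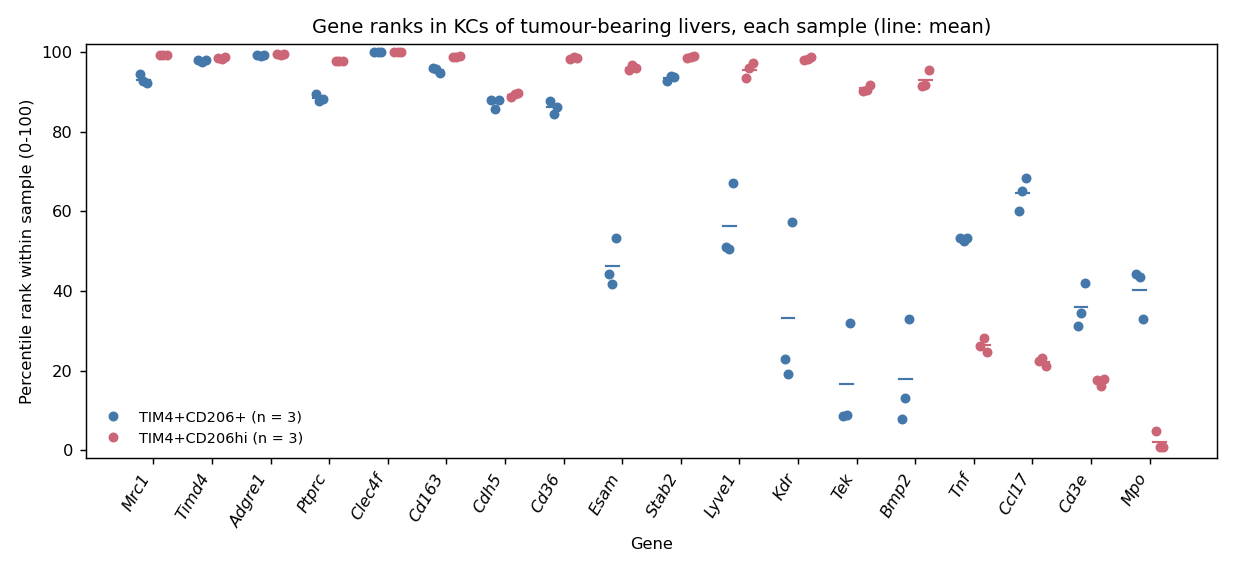
Percentile rank within each sample (y axis) of 18 genes (x axis) in CD206+ (blue) and CD206hi (red) KCs of tumour-bearing livers, with 3 samples per group and a line at the mean. Kdr, Tek and Bmp2 lie between 7.94 and 57.4 in CD206+ and between 90.2 and 98.7 in CD206hi samples, while Clec4f ranks at 99.9 in both.

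Promoters are shown for Mrc1, the gene of the gate, and for Kdr and Robo4, genes of the endothelial group. Each was higher in CD206hi KCs, Mrc1 as the gate would order it. Shared control of these genes was not tested. The sequences are the 250 bases before the transcript start that the RefSeq promoter table, GRCm38.p6, uses for each gene, read 5′ to 3′ on the gene's strand. For Kdr this start, and with it the whole window, lies inside the annotated gene interval given above. They lie at chr2:14229164-14229413 on the plus strand for Mrc1, at chr5:75978456-75978705 on the minus strand for Kdr and at chr9:37401722-37401971 on the plus strand for Robo4. Capitals mark AGGAAG, a core of sites for ETS factors, or CTTCCT, the same letters on the other strand.
Mrc1: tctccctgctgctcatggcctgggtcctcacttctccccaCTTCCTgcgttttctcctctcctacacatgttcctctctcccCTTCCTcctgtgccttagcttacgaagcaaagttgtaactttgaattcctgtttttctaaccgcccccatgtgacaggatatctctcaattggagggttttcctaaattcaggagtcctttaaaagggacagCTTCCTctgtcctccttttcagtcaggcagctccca
Kdr: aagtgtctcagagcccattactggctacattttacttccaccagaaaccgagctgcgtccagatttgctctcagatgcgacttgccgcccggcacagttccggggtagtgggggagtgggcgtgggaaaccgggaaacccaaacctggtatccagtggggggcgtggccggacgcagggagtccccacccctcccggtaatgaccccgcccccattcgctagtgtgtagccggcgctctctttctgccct
Robo4: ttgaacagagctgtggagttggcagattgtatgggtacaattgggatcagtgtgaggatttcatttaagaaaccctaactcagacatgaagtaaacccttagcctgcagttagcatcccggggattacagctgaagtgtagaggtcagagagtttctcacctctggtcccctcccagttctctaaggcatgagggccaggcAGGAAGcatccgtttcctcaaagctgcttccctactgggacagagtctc
The letters occurred 3 times in the Mrc1 window, 1 time in that of Robo4 and 0 times in that of Kdr. Of the 44 endothelial genes called higher, 29 had a window in the RefSeq table, and 18 of these (62.1%) held the letters on either strand. Among KC identity genes outside that group it was 8 of 17 (47.1%), and among all windows of this length 29.2%. The endothelial genes were chosen by their calls in these samples and the KC genes were not, so the shares come from unlike sets. The difference between these shares was not tested. A match is a description of letters and not a bound site.

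Of 20 genes that identify KCs, 5 were higher, 4 lower and 11 were not called, with 4 higher and 3 lower after removal of the trends. The median difference was 0.19 points and 0.19 on the log2 scale. This sign turned with median centring, and the median was 0.0090 points with the trends removed. Clec4f, the lectin that defines KCs, ranked at 99.9 in all 6 samples and differed by −0.05 on the log2 scale after quantile normalization (adjusted p = 0.989 on ranks). Cd5l, an abundant KC protein that binds lipids, differed by −0.07 on the log2 scale, and Vsig4, the complement receptor of KCs, by 0.50. Neither scale can show a fall of genes at the top of every sample. On median-centred log2 values, which can, Clec4f differed by −1.96, Cd5l by −2.0 and Vsig4 by −1.35, each past the threshold. The summed linear level of the list was 20.32 to 20.42 on the log2 scale in CD206+ and 19.87 to 20.07 in CD206hi samples, on the separately normalized scales. Cd163, the haemoglobin scavenger, was higher by 3.30 points (SE 0.36, adjusted p = 0.000123) and 1.55 on the log2 scale. Nr1h3, which encodes LXRα, was lower by 0.98 points (SE 0.18, adjusted p = 0.00162). Paqr9 was lower by 17.2 points, and Kcna2 higher by 17.3 points as ranked, against −0.095 with the trends removed. Id3 ranked at 98.2, 98.3 and 98.2 against 97.9, 98.0 and 97.9, a difference of −0.29 points that was not called (adjusted p = 0.177). With the trends removed its difference was 1.18 points, in the opposite direction and past the threshold. Both subsets held KC marker RNA at the highest ranks, and the CD206hi samples held endothelial marker RNA at high ranks as well.

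Of 18 transcription factors of macrophages, 5 were higher and 5 lower, and 6 and 6 with the trends removed, which is near or under the shares over all genes. They had a median of 0.11 points that turned with median centring. Zeb2, which maintains tissue macrophage identity, was higher by 15.2 points (SE 1.1, adjusted p = 2.14e-05) and Maf by 22.9 points (SE 3.0, adjusted p = 0.000307). Both remained called with the trends removed, at 1.89 and 11.4 points. Runx1 was higher by 19.1 points only as ranked. Cebpa, a factor of myeloid differentiation, was lower by 25.8 points (SE 2.8, adjusted p = 0.000124).

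Receptors for uptake were more often higher than lower. Of 20 genes for apoptotic cell uptake, 14 were higher and 1 lower, with a median of 8.22 points, and with the trends removed 11 were higher and 3 lower, with a median of 2.54. Cd36, a receptor for fatty acids and dying cells, ranked at 87.7, 84.5 and 86.1 in CD206+ and at 98.2, 98.7 and 98.4 in CD206hi samples, 12.3 points higher (SE 0.74, adjusted p = 1.28e-05). Bridging proteins that link dying cells to receptors were higher too, Pros1 by 17.9 points and Gas6 by 32.4, and so were Itgb3, an integrin chain, by 35.0 and Dock1, an engulfment regulator, by 28.6. All 4 remained called with the trends removed. Of 15 scavenger receptors, 10 were higher and 1 lower, and 7 and 3 with the trends removed. Both lists share Cd36, Lrp1, Scarf1, Stab1 and Stab2, and the stabilins are also in the sinusoidal list.

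Esam, an endothelial adhesion molecule listed with Mrc1 and Cd36 as a marker of CD206hi KCs, ranked at 44.2, 41.7 and 53.2 in CD206+ and at 95.6, 96.6 and 95.9 in CD206hi samples. The groups were far apart, by 49.7 points (SE 2.9, adjusted p = 1.21e-05). Of 30 genes of fatty acid use, 14 were higher and 13 lower as ranked, and 11 and 5 with the trends removed. Fabp4, a fatty acid carrier found in endothelium and macrophages, was higher by 38.3 points and Lpl, lipoprotein lipase, by 1.67 points and 2.00 on the log2 scale, while Acads, a mitochondrial acyl-CoA dehydrogenase, was lower by 28.5 points. Each remained called with the trends removed. In complement, 6 of 18 genes were higher and 3 lower, and 4 and 5 with the trends removed. The complement regulators Cd55 and Cd59a were higher by 39.7 and 35.9 points and Itgax, a complement receptor chain, was lower by 14.7 points.

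Angiocrine factors, signals that endothelium sends to neighbouring cells, were more often higher than lower. Which cells made this RNA was not tested. Of 16 angiocrine factors tested, 12 were higher and 2 lower, with a median of 18.7 points. With the trends removed 10 were higher and 1 lower, with the same median. Beside Bmp2 and Dll4, these included Wnt2 (39.6 points), Hgf (41.8 points) and Csf1 (22.1 points), the ligand of the receptor on which KCs depend. In the Notch, TGF-beta and BMP pathways, 10 of 20 genes were higher and 3 lower, and 9 and 3 with the trends removed. Notch4, an endothelial Notch receptor, was higher by 19.2 points and Bmpr2 by 31.9 points, the latter only as ranked.

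**Figure D3:**
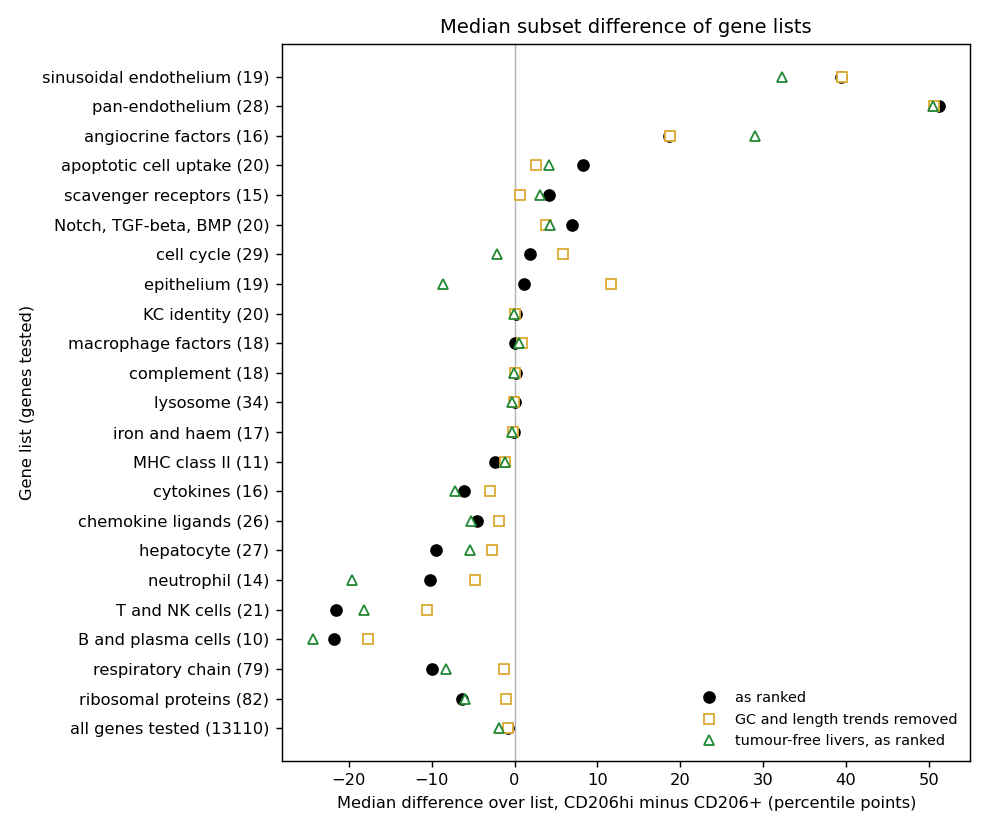
Median difference over each gene list in percentile points, CD206hi minus CD206+ (x axis), for 22 lists and all genes tested (y axis, genes tested in brackets). Circles are tumour-bearing livers as ranked, squares the same with GC and length trends removed, and triangles tumour-free livers. The endothelial lists lie at 39.4 and 51.2 points, and the ribosomal and respiratory chain lists at −6.29 and −9.92 as ranked and at −0.97 and −1.26 with trends removed.

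Markers of lymphocytes were lower in CD206hi KCs. Of 21 genes of T and NK cells, 17 were lower and 0 higher, with a median of −21.6 points, and 16 were lower with the trends removed. Gzma, a granule protease, ranked at 63.0, 66.5 and 65.2 in CD206+ and at 30, 29.6 and 29.8 in CD206hi samples. Cd2, an adhesion receptor, was lower by 30.1 points, while the difference of Ccl5, a chemokine of T and NK cells, fell from −28.5 to 0.19 points when the trends were removed. Of 10 genes of B and plasma cells, 8 were lower and 1 higher, with a median of −21.8 points, and 8 and 0 with the trends removed. Cd79a and Cd79b of the B cell receptor were lower by 36.9 and 33.9 points. Summed levels on the separately normalized scales were 12.67 to 12.75 against 12.39 to 12.56 on the log2 scale for T and NK cells and 12.59 to 12.64 against 11.51 to 11.89 for B and plasma cells.

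Other myeloid and liver cell types were less uniform. Of 14 neutrophil genes, 9 were lower and 0 higher. With the trends removed 4 were lower, under the share of 34.3% over all genes. S100a8 and S100a9, the calprotectin chains, ranked at 95.5 to 96.8 in CD206+ and at 81.8 to 92.3 in CD206hi samples, with CD206hi replicate 3 the lowest, and their calls were lost when all 12 samples shared the spread. Mpo, of neutrophil granules, was lower by 38.1 points. Of 12 monocyte genes, 4 were higher and 5 lower, near the shares over all genes, and 2 and 6 with the trends removed. S100a4 was lower by 38.1 points and Ly6c2 by 27.4, whereas F13a1, the factor XIII A chain, was higher by 21.0. Among 8 dendritic cell genes, 2 were higher and 6 lower, and 2 and 5 with the trends removed. Ccr7, the lymph node homing receptor, was lower by 33.5 points and Zbtb46, a factor that endothelium also uses, was higher by 26.5.

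Of 27 hepatocyte genes, 1 was higher and 17 lower as ranked, with a median of −9.48 points, and 1 was higher and 7 lower with the trends removed, with a median of −2.70. The share of lower genes with the trends removed was under the 34.3% over all genes. Alb, serum albumin, ranked at 76.8, 72.1 and 84.2 against 81.7, 73.7 and 84.0, so that its groups overlapped, and Ass1, a urea cycle enzyme, was lower by 32.1 points. Of 15 stellate cell genes, 2 were higher and 6 lower, and 1 and 5 with the trends removed. The lower ones were near the share over all genes both ways. Bgn, a matrix proteoglycan, was higher by 55.9 points and Acta2, smooth muscle actin, was lower by 24.5. Of 12 erythroid and platelet genes, 1 was higher and 3 lower, and 1 and 1 with the trends removed. The near-identical haemoglobin genes Hba-a1 and Hba-a2, whose reads may be shared, ranked at 97.6 to 99.4 in CD206+ and at 87.1 to 98.4 in CD206hi samples (not called), with replicate 3 the lowest in each group.

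Of 26 chemokine ligands tested, 15 were lower and 0 higher in CD206hi KCs, with a median of −4.54 points. With the trends removed 8 were lower and 2 higher, so that the share of lower ligands was near that over all genes. Ccl17, a ligand of CCR4, ranked at 60, 65.2 and 68.4 in CD206+ and at 22.5, 23.2 and 21.3 in CD206hi samples, 42.2 points lower (SE 2.6, adjusted p = 1.31e-05). Ccl22, which shares its receptor, was lower by 30.7 points and Ccl4, an attractant of T and NK cells, by 35.9. Of 18 chemokine receptors, 7 were higher and 7 lower, about the shares over all genes, and 5 and 9 with the trends removed. Ackr2, a scavenging receptor of CC chemokines found on lymphatic endothelium, was higher by 63.0 points, and Cxcr4, the receptor of CXCL12, was lower by 23.3.

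Of 16 cytokines and related factors, 11 were lower and 2 higher, and 9 and 2 with the trends removed. Tnf ranked at 53.3, 52.6 and 53.2 in CD206+ and at 26.3, 28.2 and 24.8 in CD206hi samples (difference −26.7 points, SE 1.8, adjusted p = 1.8e-05). Il10, an inhibitory cytokine, was lower by 22.0 points, so that genes with opposing roles were lower together. Of 11 MHC class II genes, 7 were lower and 0 higher, and 6 were lower with the trends removed. H2-Oa, H2-Ob and H2-DMb2, whose products promote or restrain peptide exchange, were lower by 40.9, 28.8 and 33.3 points, and Ciita, the master activator of the class, by 11.9. Of 16 genes of MHC class I presentation, 3 were higher and 7 lower, and 1 and 5 with the trends removed. Pdia3, a chaperone of class I loading, was higher by 4.64 points, and Psmb9, an immunoproteasome subunit, was lower by 5.94.

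Of 11 co-stimulatory and checkpoint genes, 2 were higher and 5 lower, and 0 and 6 with the trends removed. Cd40 ranked at 86.2, 84.3 and 85.8 against 60.5, 59.3 and 62.9, and Icosl and Pdcd1lg2, which encodes PD-L2, were lower by 26.3 and 18.6 points. Cd274, which encodes PD-L1, was higher by 7.78 points as ranked only. Of 17 Toll-like receptor genes, 6 were higher and 6 lower, and 2 and 10 with the trends removed. Tlr9, a DNA sensor, was lower by 18.5 points and Tlr8, an RNA sensor, higher by 18.9. Of 27 C-type lectins, 7 were higher and 11 lower, close to the shares over all genes, and 8 and 16 with the trends removed, with a median of −4.18 points. Clec1a was higher by 54.1 points, and Clec4d, an ITAM-coupled receptor, lower by 31.9. Of 22 activating and inhibitory myeloid receptors, 4 were higher and 12 lower, and 4 and 13 with the trends removed. Slamf7 was lower by 15.9 points and Trem2, a lipid receptor, by 10.2, the latter not called with the trends removed.

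Among 30 interferon-stimulated genes, 10 were higher and 11 lower, close to the shares over all genes, and 8 and 8 with the trends removed. The sign of the median changed with the scaling. Ifit2 was higher by 20.4 points and Oas3 and Xaf1 were lower by 21.4 and 19.6. Of 11 genes of lipid-associated macrophages, 2 were higher and 3 lower, and 4 and 0 with the trends removed. Spp1, osteopontin, was higher by 2.44 points and 1.61 on the log2 scale, a call lost with median centring.

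The respiratory chain and the ribosome, encoded by short transcripts, were lower as ranked. Of 79 subunits of the respiratory chain, 70 were lower and 3 higher, with a median of −9.92 points and a median transcript of 863 bases. Of 82 ribosomal protein genes, 77 were lower and 1 higher, with a median of −6.29 points and 926 bases. With the trends removed, 36 subunits were lower and 12 higher, and 38 ribosomal genes were lower and 9 higher, with medians of −1.26 and −0.97 points against −0.76 over all genes. Rpl39 remained called, at −14.8 points against −32.0 as ranked, and so did Ndufb2 of complex I, at −39.4 against −27.7. Rps21 (−27.0 points) did not. Ribosomal proteins have many processed pseudogenes that share reads with them, so that single values are uncertain.

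In the cell cycle list more genes were higher than lower in CD206hi KCs. Of 29 genes, 13 were higher and 5 lower, against 33.1% and 39.2% of all genes. With the trends removed 11 were higher and 4 lower, against 26.6% and 34.3% of all genes. The median of 1.91 points turned with median centring and was −2.15 points in tumour-free livers. Mki67, the proliferation marker, ranked at 32.5, 36.9 and 34.0 in CD206+ and at 66.0, 72.4 and 72.7 in CD206hi samples, 35.9 points higher (SE 2.7, adjusted p = 2.4e-05). The mitotic motors Cenpe and Kif11 were higher by 36.7 and 32.1 points and Top2a, which untangles replicated DNA, by 29.1. With the trends removed these 4 genes were higher by 14.0 to 19.1 points. Among the 5 lower genes of the list, Tyms was lower by 15.8 points, and by 18.6 with the trends removed. In heat shock, 7 of 11 genes were higher and 2 lower, and 5 and 1 with the trends removed. In the immediate early group 7 of 17 were higher and 6 lower as ranked, and 9 and 2 with the trends removed. Jun was higher by 23.5 points and Fosb lower by 15.2. For Jun, CD206+ replicate 2 stood at 72.1 against 51.5 and 56.1 in the other CD206+ samples.

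Of 34 lysosomal genes, 5 were higher, 7 lower and 22 not called, and 5 were higher and 5 lower with the trends removed. All of these shares were under those over all genes. In sterol and fatty acid synthesis 9 of 28 were higher and 11 lower, and 3 and 12 with the trends removed. Mvk, mevalonate kinase, was lower by 30.7 points and Dhcr7, of the last step to cholesterol, by 22.4. Among LXR and cholesterol genes 4 of 14 were higher and 6 lower, and 1 and 5 with the trends removed. Mylip, an LXR target that degrades the LDL receptor, was higher by 22.3 points. In glycolysis and hypoxia 6 of 25 were higher and 8 lower, and 3 and 7 with the trends removed, all under the shares over all genes. Hif1a was higher by 26.8 points, and Slc16a3, a lactate exporter, was lower by 22.1. In iron and haem handling 6 of 17 were higher and 4 lower, and 2 and 4 with the trends removed, near or under the shares over all genes. Slc11a2, an iron transporter, was lower by 10.7 points. All 4 Y-linked genes tested were higher as ranked, and 2 with the trends removed, among them Eif2s3y, which ranked at 43.4 to 53.2 against 77.5 to 78.6. The X-linked Xist fell under the filter, with deposited values of 0 or below in every sample of both subsets, with and without tumour.

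The 10 largest differences towards CD206+ KCs were Tmem119 (−44.6 points), Guca1a (−44.4 points), Cacna1f (−44.1 points), 1600010M07Rik (−43.8 points), Shld1 (−42.9 points), Ccl17, Hebp1 (−41.9 points), Hcst (−41.4 points), 4930455G09Rik (−41.2 points) and 1600002K03Rik (−41.1 points). Tmem119 is a membrane protein known from microglia, Hcst encodes the DAP10 adaptor of activating receptors and Hebp1 binds haem. All 10 remained called with the trends removed, with differences of −47.6 for Cacna1f to −13.7 for Hcst. Tmem119 ranked at 83.2, 76.8 and 75.4 in CD206+ and at 42.3, 32.2 and 27.1 in CD206hi samples, so that its groups did not overlap. The 10 tumour-free differences were −25.5 to −40.5 points.

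The subset difference was then compared between tumour-bearing and tumour-free livers. A rank shift common to all samples of a table cancels in this comparison, but a common log2 shift need not. The median of the comparison ran from −3.61 points in the quintile with the lowest GC content to 1.55 in the highest. By the interaction term of limma over the 12 samples, 70 of 13110 genes (0.534%) were called at an adjusted p under 0.05. Of these, 52 (0.397%) were more positive and 18 (0.137%) more negative with tumour. At an unadjusted p under 0.05 there were 1450. With the trends removed 79 genes were called, 63 more positive and 16 more negative, and only 48 of the 70 were among them. The count rested on single samples: it was 185, with 91 more positive and 94 more negative, without CD206hi tumour-free replicate 2, and 36 to 44 without CD206+ tumour-bearing replicate 3, CD206hi tumour-bearing replicates 1 or 3, or CD206+ tumour-free replicates 1 or 3. The endothelial lists had no such gene. Their median differences without tumour were 32.2 points for the sinusoidal and 50.5 for the pan-endothelial list, and 4.85 and 4.4 on the log2 scale. In simulated data this term recovered 13% of genes changed by 1 and 48% of those changed by 2 on the log2 scale. A lack of calls therefore does not show that the differences were the same. Groups share the KC subset tables with those above, and the difference in tumour-free livers is not a separate replicate of the tables.

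The most positive difference with tumour was that of Epcam. Epcam, the epithelial cell adhesion molecule (chromosome 17, 87635979 to 87651127), ranked at 18.4, 25.6 and 19.2 in CD206+ and at 57.4, 60 and 59.2 in CD206hi KCs of tumour-bearing livers. Without tumour it ranked at 8.66, 11.8 and 9.38 in CD206+ and at 5.74, 8.82 and 5.45 in CD206hi KCs. The subset difference was 37.8 points with and −3.27 without tumour, which is 41.1 points apart (SE 3.0, adjusted p = 0.000286). Of the next 4 genes, the sodium pump subunit Atp1b1 differed by 35.8 points, Prom1, an apical membrane protein, by 34.6, Pls1, an actin bundler of microvilli, by 33.8 and Sdc1, an epithelial proteoglycan, by 33.8. The calls of Prom1 and Sdc1 were lost under several alternatives. Each of the 5 genes had a higher rank in every tumour-bearing CD206hi sample than in any sample of the other 3 groups. Of 19 epithelial genes tested, 2 were called, Epcam and the duct factor Sox9 (17.9 points, SE 1.6, adjusted p = 0.000904), against 0.397% of all genes.

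No keratin of the list was called in this comparison. Krt8 ranked at 97.3, 97.4 and 96.8 in CD206+ and at 98.3, 98.4 and 98.4 in CD206hi KCs with tumour, and at 58.8 to 75.0 and 36.4 to 54.4 without tumour. Krt19 ranked at 97.0, 96.2 and 96.4 against 97.1, 97.4 and 96.9 with tumour, and at 39.7 to 56.6 and 20.7 to 38.0 without. Their interactions of 22.2 and 17 points were not called (adjusted p = 0.241 and 0.392). Over the epithelial list, 9 of 19 genes were higher and 2 lower in CD206hi KCs with tumour, and 15 and 1 with the trends removed, with medians of 1.19 and 11.7 points. The first median turned with median centring. The summed level of the list was 15.49 to 15.70 on the log2 scale in CD206+ and 15.96 to 16.07 in CD206hi samples with tumour. The part of tumour cell RNA or uptake by KCs in these ranks was not tested.

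**Figure D4:**
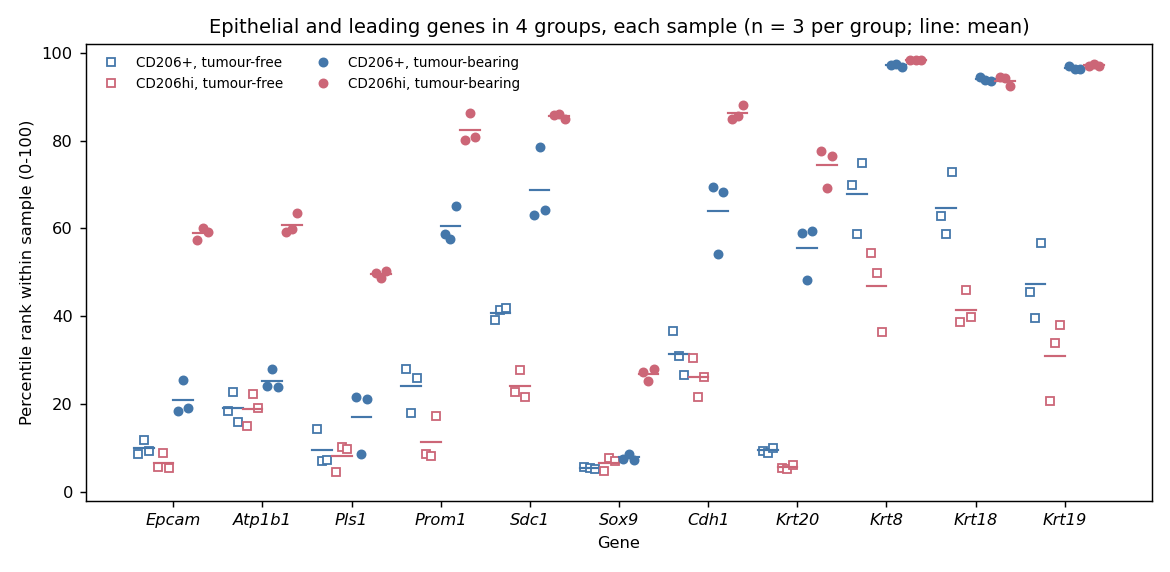
Percentile rank within each sample (y axis) of the 5 genes that led the difference with tumour and of 6 epithelial list members (x axis). Open squares are tumour-free and filled circles tumour-bearing livers, blue CD206+ and red CD206hi KCs, with 3 samples per group and a line at the mean. Epcam ranks at 57.4 to 60 in tumour-bearing CD206hi samples and at most at 25.6 in the others, while Krt8 is at 96.8 or above in both tumour-bearing groups.

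The 5 leading genes that were more negative with tumour had a larger difference towards CD206hi KCs in tumour-free livers. Ldhb, a lactate dehydrogenase chain, ranked at 66.8, 61.3 and 62.5 in CD206+ and at 47.1, 46.7 and 44.8 in CD206hi KCs with tumour, but at 41.5, 38.3 and 42.5 and at 60.9, 67.9 and 71.5 without. The order of the subsets was opposite in both conditions, with an interaction of −43.4 points (SE 4.6, adjusted p = 0.00146), although the tumour-bearing difference itself was not called with the trends removed. Gpr155 differed by −32.5 points, Sult2a8, a hepatic sulfotransferase, by −29.4, Art3 by −29.0 and Ackr4, a scavenging receptor for homing chemokines, by −28.3. Ackr4 ranked at 21.1 to 26.5 in CD206hi KCs with and at 54.7 to 55.9 without tumour. F13a1 had a subset difference of 21.0 points with and 46.0 without tumour, since its rank in CD206+ samples was 74.1 to 75.2 with and 44.5 to 47.6 without.

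**Figure D5:**
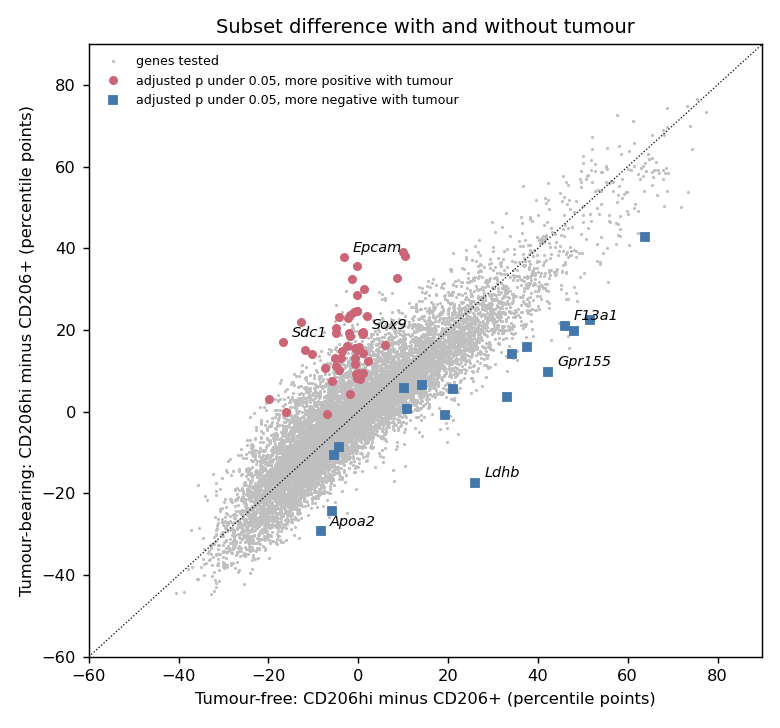
Subset difference, CD206hi minus CD206+ in percentile points, in tumour-bearing (y axis) against tumour-free livers (x axis) for 13110 genes (grey), with the 52 genes more positive (red circles) and the 18 more negative with tumour (blue squares) by the interaction term. Both axes share the authors' tables, and the dotted line marks equal differences. Epcam lies at 37.8 against −3.27 points and Ldhb at −17.3 against 26.0.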

How the data were processed

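RNA was measured in sorted KCs by RNA-seq after SMART-Seq v4 amplification. The deposited log2 values were made by the authors from gene counts, in a separate table for each KC subset. Their columns are named TPM, but the linear values do not sum to the fixed total of TPM. The submitters' processing notes name STAR 2.7.10a, HTSeq, DESeq2 and mm10, and the transformation to log2 values is not given in the sources used here. The counts behind the values were not used, so depth and its precision are unknown.

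The tables were joined by gene symbol (25124 genes). Genes with a value of at least log2(10) in 3 samples of each table were kept (13110 genes) and ranked within each sample from 0 to 100. Percentile ranks were tested with limma (version 3.58.1, R 4.3.3), whose variance prior followed the mean rank, and p-values were adjusted by Benjamini-Hochberg over all genes. The fit used the 6 tumour-bearing samples, and the interaction term the 12 samples of both tables. Log2 differences are from quantile-normalized values. Transcript length and GC content were known for 98.7% of genes from GENCODE, taking the longest protein-coding transcript or else the longest. In an alternative chosen after the data were seen, their trends were removed as splines (5 degrees of freedom) before ranking. The size of 1 on the log2 scale was also chosen after the data were seen. Other alternatives were the filter, scale, spread, samples and replicate block. Python 3.11.15 and matplotlib 3.10.9 were used for summaries and plots. Columns of the other experiment of the series were not used.

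Both fits were tested on simulated data for 13110 genes, with 100 genes changed by 1 and 100 by 2 on the log2 scale. The subset fit recovered 54% and 90% of these genes, and the interaction 13% and 48%. Among the genes called, 4.64% and 14.1% were false. For the interaction this share lay above the adjusted p threshold, so its calls hold more false ones than that threshold states. Between the subsets 72.3% of genes were called in the data, far more than were changed in the simulation. The share of 4.64% therefore need not hold for them. Genes were named by rule: the gate genes, the 10 largest differences in each direction, up to 4 called members of each of 44 lists, the 5 largest interactions in each direction and the first 3 markers of each marker list. Other genes named were chosen after their values were seen. The members and lists were chosen with earlier results of these data known. Some genes of the lists are not reported here.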

Additional observations from a re-analysis of the deposited data

Results flagged for a closer look

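The subset difference in tumour-bearing livers differed from that in tumour-free livers for 70 genes by the interaction term of limma (adjusted p under 0.05). More positive with tumour were Epcam (41.1 points, adjusted p = 0.000286), Atp1b1 (35.8 points), Prom1 (34.6 points), Pls1 (33.8 points), Sdc1 (33.8 points) and Sox9 (17.9 points). More negative were Ldhb (−43.4 points, adjusted p = 0.00146), Gpr155 (−32.5 points), Sult2a8 (−29.4 points), Art3 (−29.0 points), Ackr4 (−28.3 points), F13a1 (−25.0 points) and Apoa2, an apolipoprotein of hepatocytes (−20.9 points). The calls of Prom1 and Sdc1 were lost under several alternatives. Of the 70 genes, only 48 remained called with GC and length trends removed. What lay behind these differences was not tested.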

How the results depend on the processing

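The depth of the samples is unknown, and both subsets come from separately normalized tables. Between the subsets 9477 of 13110 genes were called, and without a filter on low values 21085 of 25124, with 7242 higher and 13843 lower. Leaving out 1 sample gave 8586 to 9776 genes, with 3883 to 4571 higher and 4703 to 5205 lower. Median centring lowered the share of calls that were higher from 45.8% to 38.1% and moved the median of all genes to −0.32 on the log2 scale. With tumour 70 of 13110 genes differed, against 343 of 25124 without a filter, 11 of 10736 with the stricter filter, 45 with quantile-normalized values and 130 with median centring. With GC and length trends removed 79 of 12935 differed, among them 48 of the 70. Leaving out 1 sample gave 36 to 185, the highest without CD206hi tumour-free replicate 2.

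With the replicate block, 9374 genes were called between the subsets and 64 differed with tumour. Deviations of same-numbered samples had correlations of 0.15, −0.09 and 0.13, against −0.22 to 0.07 for the other pairs. Such weak correlations cannot show whether the numbers pair the samples, and the labels do not say.

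With median centring the sign turned on the log2 scale for Adgre1 (−1.23), Alb (−0.50), Cd274 (−0.0271), Cdh5 (−0.73), Krt19 (−1.11), Krt8 (−0.75), Timd4 (−0.92) and Vsig4 (−1.35). With GC and length trends removed it turned, in points, for Adgre1 (−0.289), Ccl5 (0.186), Cd274 (−0.946), Gpr155 (−4.37), Id3 (1.18), Kcna2 (−0.0953), Ldhb (3.52), Sult2a8 (−2.33) and Timd4 (−0.111). Leaving out 1 sample turned the sign of Alb (range −0.718 to 5.34 points; also −0.00763), Cd5l (range −0.0102 to 0.00127) and Clec4f (range −0.00636 to 0.00127; also 1.42e-14). The cause was not tested.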
